A study of Mus musculus with 28 samples.

Results

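The imprinted mouse genes, H19, Igf2, Kcnq1ot1, Peg3, Snrpn, Grb10, Igf2r, Mest, Gnas and Meg3, 10 in all, were followed through peak lists of 5-methylcytosine (5mC) and of 5-hydroxymethylcytosine (5hmC), the oxidised form that TET enzymes make from it. They lay in 9 windows of 40 to 130 kb, 760 kb in all, with H19 and Igf2 sharing a window. Every peak of the 11 lists that overlapped a window was taken. After overlapping peaks of all libraries of a mark were merged into regions, the windows held 88 of 206417 5hmC regions and 125 of 218122 5mC regions. Per library this was 54 to 68 of 128471 to 143960 5hmC peaks and 92 to 121 of 120243 to 147934 5mC peaks.

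The libraries came from bone marrow cells labelled LK of C57BL/6 mice aged 6 to 10 weeks. Wild-type mice (WT), mice without Tet2 (Tet2KO) and mice without both Tet1 and Tet2 (DKO) were compared. Each genotype had 2 libraries of each mark, except 5mC in Tet2KO, which had 1. How the alleles were made is not given in the labels. These are also silent on whether libraries of one genotype stem from different animals, and p-values therefore reflect the spread among these libraries alone, part or all of which may be technical. Fragments with 5hmC were enriched by hMe-Seal, a chemical labelling of the modified base, and fragments with 5mC by MeDIP, a pull-down with an antibody. Peak lists hold no expression values, so neither the LK identity of the cells nor the loss of Tet1 and Tet2 was checked by markers.

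An imprinted gene is transcribed mainly from 1 parental copy. That choice is kept by DNA methylation laid down in 1 of the germ lines at a CpG-rich control region, where the copies of the mother and the father then differ in 5mC in nearly all tissues. The zinc finger protein ZFP57 binds a methylated hexamer in many of these control regions and helps to keep them methylated. TET enzymes act against methylation by oxidising 5mC. The peaks in these lists are not assigned to a parental copy, so a 5mC peak shows that some of the DNA was methylated there, not which copy.

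Promoters are printed here for 3 members, chosen after the values of their windows were seen: Peg3 had 5mC and no 5hmC peaks, Igf2r had the highest 5hmC coverage, and a 5hmC region of Mest was called in WT and in neither mutant. Each line holds the 250 bases before a start of transcription on the gene's own strand, 5′ to 3′, from RefSeq on GRCm38.p6, with every CpG, the site of both marks, in capitals.

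Peg3, chr7:6730420-6730669, minus strand: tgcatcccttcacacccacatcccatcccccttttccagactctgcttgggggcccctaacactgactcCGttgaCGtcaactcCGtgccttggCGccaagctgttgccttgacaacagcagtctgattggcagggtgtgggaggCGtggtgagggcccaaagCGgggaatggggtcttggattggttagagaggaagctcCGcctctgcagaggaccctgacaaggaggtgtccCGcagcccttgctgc

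Igf2r, chr17:12769707-12769956, minus strand: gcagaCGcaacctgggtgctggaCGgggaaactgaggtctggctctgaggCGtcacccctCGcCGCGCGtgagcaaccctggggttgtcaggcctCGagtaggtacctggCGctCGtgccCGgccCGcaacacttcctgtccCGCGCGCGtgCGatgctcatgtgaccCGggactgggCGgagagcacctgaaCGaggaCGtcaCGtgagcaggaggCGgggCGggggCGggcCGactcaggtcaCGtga

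Mest, chr6:30737800-30738049, plus strand: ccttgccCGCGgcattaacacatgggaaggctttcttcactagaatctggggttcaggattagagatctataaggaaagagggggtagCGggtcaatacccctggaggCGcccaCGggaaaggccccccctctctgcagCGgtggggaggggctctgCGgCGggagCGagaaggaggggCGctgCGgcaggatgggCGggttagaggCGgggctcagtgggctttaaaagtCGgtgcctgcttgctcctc

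These stretches held 8 CpG for Peg3, 27 for Igf2r and 14 for Mest. RefSeq gave 22 promoters of 300 bases for 9 of the 10 members, H19 not being matched. Their CpG counts ran from 1 in a Meg3 promoter to 45 in a Grb10 promoter. The median was 7 over all 32851 promoters, a set that leaves out 1 chromosome. The hexamer of ZFP57, TGCCGC or GCGGCA on the other strand, was found in 6 of the 22 member promoters and in 11.6% of all promoters. It holds a CpG itself, and these shares were not matched for CpG count. The Mest promoter printed above held it at 2 places, and the stretches of Peg3 and Igf2r held none. Another Mest entry, starting at 30737803, overlaps the printed one and holds the same 2 places. The 6 are therefore not all separate promoters. A match is a string of letters and not a measured binding site. The peaks are on another build, mm9, so these promoters could not be set against them, and all positions below are in mm9.

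**Figure D1:**
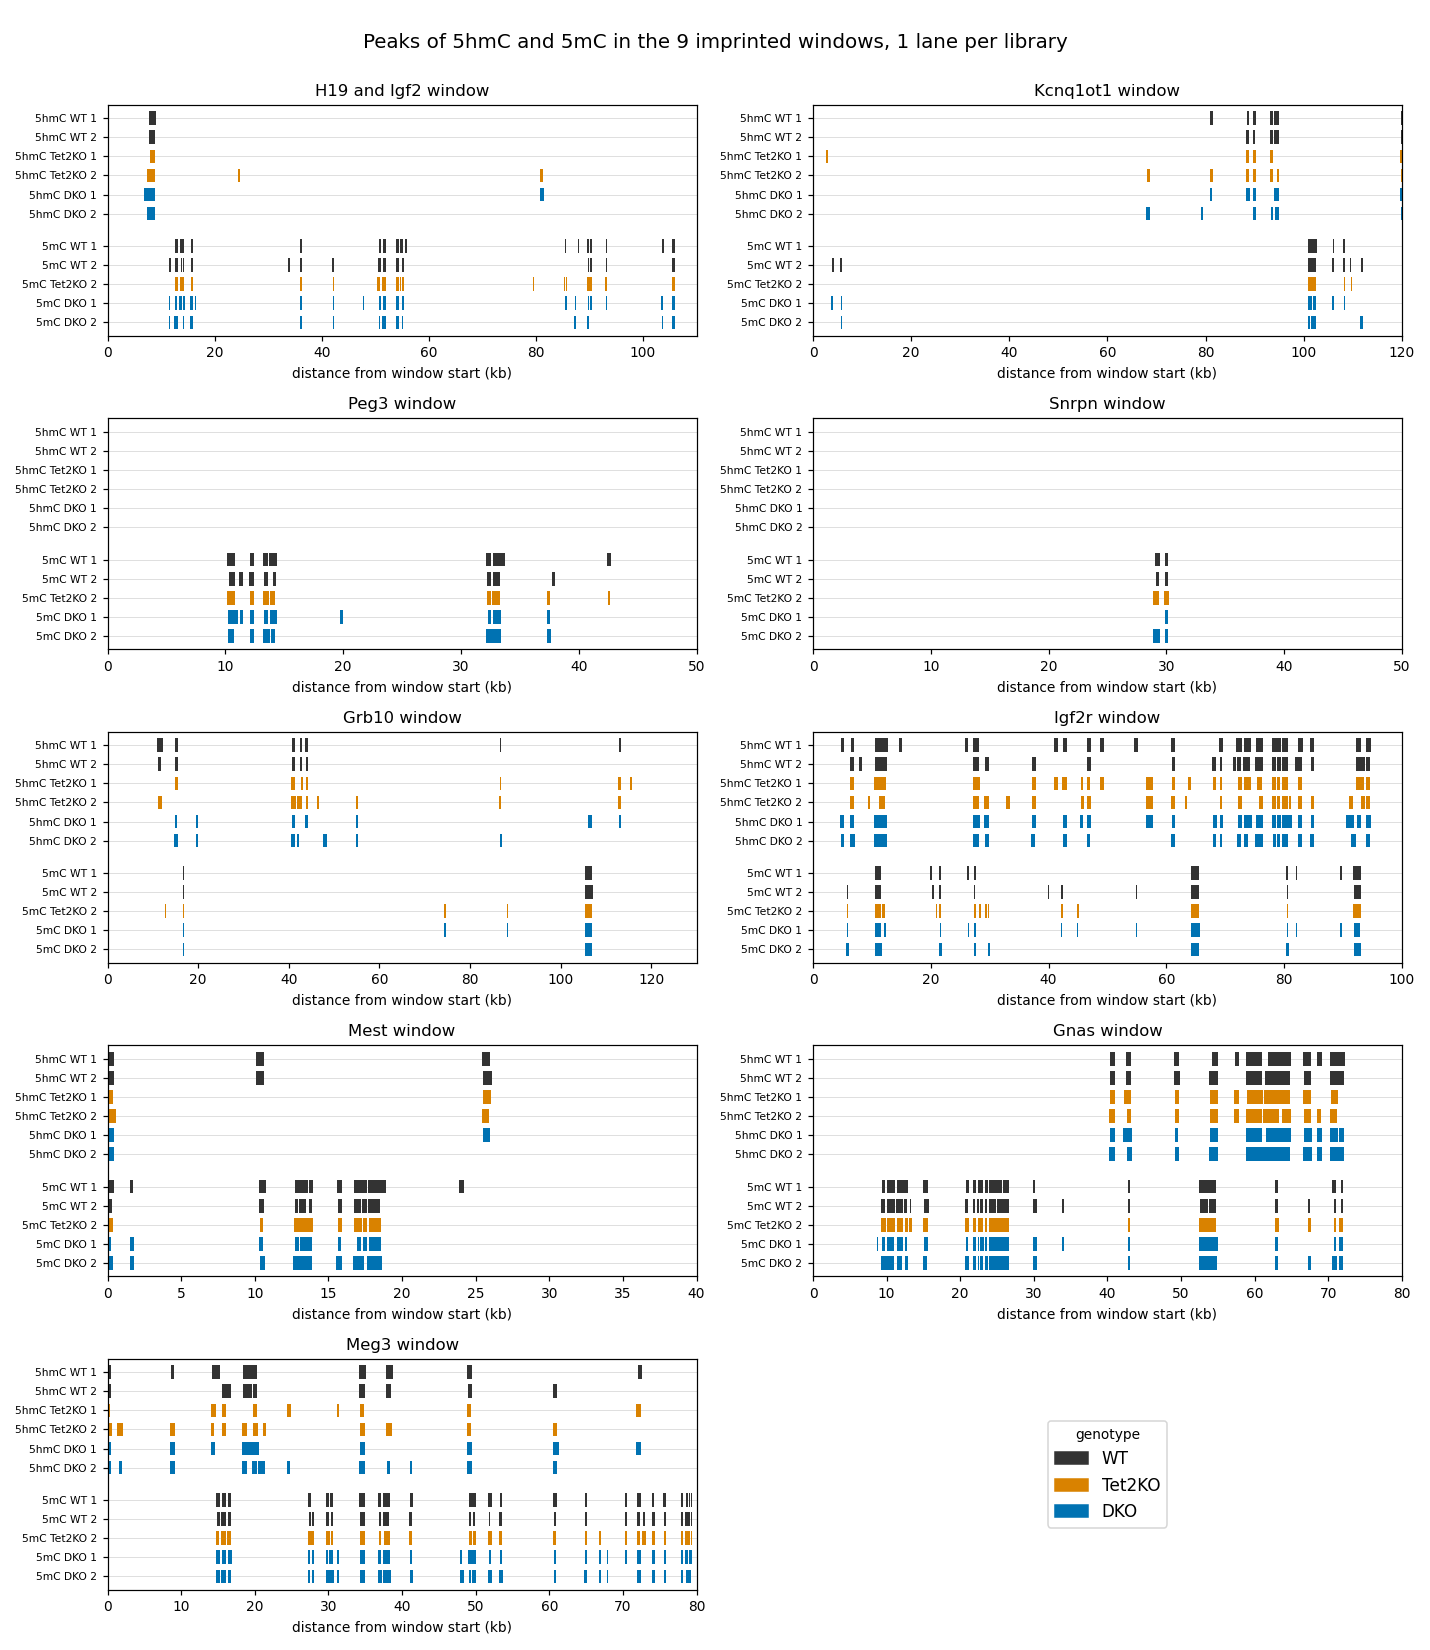
Peaks of each library (1 lane each) along the 9 windows, as distance from the window's start in kb; grey-black is WT, orange Tet2KO and blue DKO. The 5hmC lanes of the Peg3 and Snrpn windows are empty in all 6 libraries, while both windows have 5mC peaks.

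In WT cells the windows together carried much more 5mC than the rest of the genome and a little more 5hmC. Peaks of 5mC covered 6.26% ± 0.374 of the 760 kb (SD, n = 2) against 1.68% ± 0.0157 of the genome. Peaks of 5hmC covered 6.16% ± 0.484 of the windows against 4.18% ± 0.0681 of the genome. The ratio of 5hmC to 5mC coverage was thus 0.984 in the windows and 2.48 over the genome. Within the windows this ratio differed widely: it was 3.29 for Igf2r, 1.87 for Grb10, 1.14 for Kcnq1ot1, 0.981 for Gnas, 0.653 for Meg3, 0.381 for Mest, 0.172 for H19 and Igf2, and 0 for Peg3 and Snrpn.

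Over all libraries, 5mC coverage was 9.30 times the genome's mean in the Gnas window, 8.03 times in Meg3 and 5.91 times in Mest. It was 1.28 times in Kcnq1ot1, 1.01 times in Grb10 and 0.724 times in Snrpn, with Peg3, Igf2r and the H19 and Igf2 window between 3.64 and 4.07 times. For 5hmC the order was Igf2r with 4.504 times the genome's mean, Gnas with 3.78 times and Meg3 with 2.03 times, and every other window was below the mean. The member regions of 5mC were also more often shared: 67 of 125 (53.6%) had a peak in all 5 libraries, against 32.3% of the genome's 5mC regions. For 5hmC, 30 of 88 (34.1%) had a peak in all 6 libraries, against 29.9%. Shared regions were most frequent in Gnas, with 8 of 10 5hmC regions and 16 of 21 5mC regions, and in Meg3 for 5mC, with 19 of 26. The median width of a member 5mC region was 464 bp, against 341 bp over the genome.

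**Figure D2:**
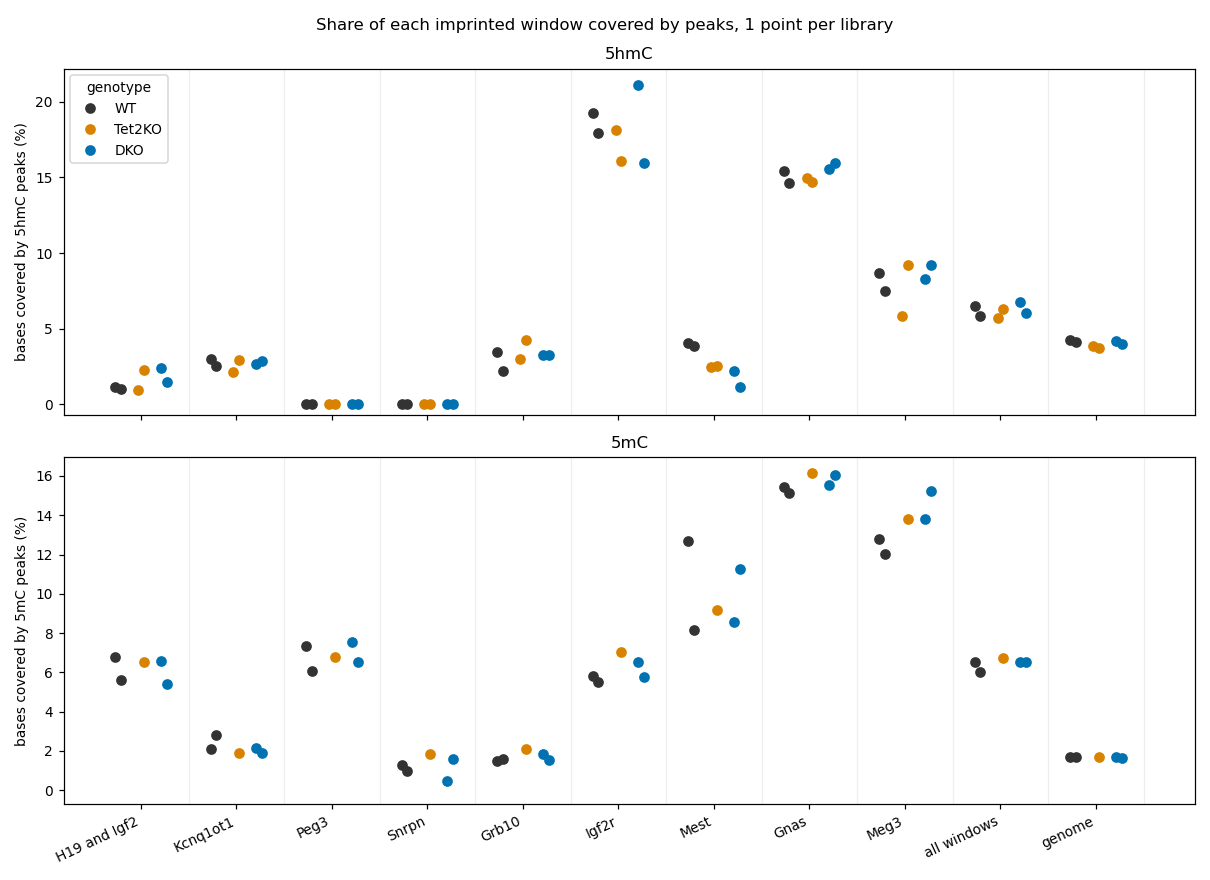
Percent of bases of each window covered by 5hmC peaks (upper panel) and by 5mC peaks (lower panel), 1 point per library, coloured by genotype, with all windows together and the genome at the right. Igf2r and Gnas stand highest for 5hmC and Gnas and Meg3 for 5mC, while Peg3 and Snrpn lie at 0 for 5hmC.

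Igf2 encodes the ligand of the growth axis, insulin-like growth factor 2, and is read from the father's copy, while H19, its neighbour, gives a non-coding RNA from the mother's copy. Their window, chr7:149750001-149860000, had 14 to 20 5mC peaks and 1 to 3 5hmC peaks per library. The 5mC coverage was 6.76% and 5.58% in the WT libraries, 6.54% in Tet2KO and 6.57% and 5.41% in DKO, so the genotypes overlapped. The 5hmC coverage was 1.13% and 0.991% for WT, 0.945% and 2.26% for Tet2KO and 2.39% and 1.47% for DKO. Both DKO libraries were above both WT libraries, but limma on whole windows did not call the difference (0.0354 on the arcsine scale, SE 0.0249, adjusted p = 0.762 over 13483 windows and 100 kb bins). A single 5hmC region, chr7:149756867-149758998, was present in all 6 libraries. Its deposited scores, given by the authors for each peak, were 160 and 120 for WT, 271 and 357 for Tet2KO and 295 and 237 for DKO. The scale of the scores is not stated and depth is unknown. Here and below they are printed as deposited, and differences between libraries or genotypes are not read as changes of a mark. The widest shared 5mC region, chr7:149763376-149764418, lay apart from it.

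Igf2r encodes the receptor that removes IGF2 from the cell surface and is read from the mother's copy in mice. Its window, chr17:12870001-12970000, was the richest in 5hmC, with 19.3% and 17.9% covered for WT, 18.2% and 16.1% for Tet2KO and 21.1% and 16.0% for DKO. The DKO libraries alone spanned the values of the other 4. The 5mC coverage was 5.79% and 5.51% for WT, 7.03% for Tet2KO and 6.54% and 5.77% for DKO. Here the marks met: of 6 5mC regions present in both WT libraries, 4 overlapped a 5hmC region present in both WT libraries. The region chr17:12961762-12963050 ranked within the top 0.179% of every 5mC list, with scores of 3100 and 3100 for WT, 2566 for Tet2KO and 3233 and 2866 for DKO. The value 3100 is a tie: in WT replicate 2 the strongest peak of the Grb10 window had it too, at the same rank of 0.142%. The 5mC region lay under the widest shared 5hmC region of the window, chr17:12960487-12963717. That span is a union of peaks, and single libraries covered 747 to 2017 bp of it. Of the 1289 bp of the 5mC region, 5hmC covered between 20 bp, in Tet2KO replicate 2, and 887 bp, in WT replicate 1.

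Grb10 encodes an adaptor protein that dampens signalling by insulin and IGF receptors. The 5hmC coverage of its window, chr11:11820001-11950000, was 3.43% and 2.22% for WT, 3.01% and 4.27% for Tet2KO and 3.24% and 3.29% for DKO. The positions of the peaks varied between libraries, and 1 of 14 5hmC regions, chr11:11860459-11861509, was present in all 6. For 5mC the window had 2 to 5 peaks per library and 1 region, chr11:11925327-11927098, that ranked within the top 0.167% of every list, with scores of 3119 and 3100 for WT, 3100 for Tet2KO and 2774 and 2808 for DKO.

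Kcnq1ot1 and Meg3 give long non-coding RNAs; Kcnq1ot1 is read from the father's copy and silences neighbouring genes on it, and Meg3 is read from the mother's copy. The Kcnq1ot1 window, chr7:150380001-150500000, had 2.97% and 2.55% of its bases under 5hmC peaks for WT, 2.16% and 2.92% for Tet2KO and 2.67% and 2.86% for DKO. Its widest 5mC region, chr7:150480888-150482605, was present in all 5 libraries with scores of 1371 and 901 for WT, 1361 for Tet2KO and 953 and 660 for DKO. It made up 1704 of the 2487 bp under 5mC peaks in WT replicate 1 and 1450 of 3348 bp in WT replicate 2. The widest shared 5hmC region, chr7:150499603-150500286, had scores of 83.1 to 185. No 5mC region of the WT libraries overlapped a 5hmC region there.

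In the Meg3 window, chr12:110750001-110830000, the 5mC coverage was 12.8% and 12.0% for WT, 13.8% for Tet2KO and 13.8% and 15.3% for DKO, so that all 3 mutant libraries lay above both WT libraries. The 5hmC coverage was 8.71% and 7.51% for WT, 5.87% and 9.21% for Tet2KO and 8.31% and 9.21% for DKO, and the genotypes overlapped. The widest shared 5hmC region was chr12:110768190-110771454. The widest shared 5mC region, chr12:110787382-110788467, had scores of 349 and 427 for WT, 502 for Tet2KO and 731 and 398 for DKO.

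Peg3, which encodes a zinc finger protein read from the father's copy, and Snrpn, which encodes a spliceosomal protein of the Prader-Willi region read from the father's copy, had no 5hmC peak in any of the 6 libraries. The Peg3 window, chr7:6650001-6700000, had 7 to 10 5mC peaks per library and a 5mC coverage of 7.34% and 6.08% for WT, 6.80% for Tet2KO and 7.52% and 6.55% for DKO. In the Snrpn window, chr7:67120001-67170000, 1 or 2 5mC peaks per library covered 1.27% and 0.990% for WT, 1.83% for Tet2KO and 0.448% and 1.57% for DKO. The strongest 5mC region of Peg3, chr7:6663175-6664381, had scores of 871 and 1163 for WT, 846 for Tet2KO and 1020 and 843 for DKO. The shared 5mC region of Snrpn, chr7:67149804-67150181, was weak, with scores of 63.4 to 240.

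The nearest 5hmC peak to the Peg3 window was 313 to 366 kb before it and 372 to 530 kb after it, depending on the library. For the Snrpn window it was 607 to 1005 kb before and 3736 to 3791 kb after. An empty window of this size is not rare: of 264039 stretches of 50 kb, taken every 10 kb over the genome, 51.7% had no 5hmC peak in any library. Among the 133389 stretches with a 5mC peak in all 5 lists, as in both windows, 23.9% had none. Read depth is not known, so 5hmC below the threshold of the peak caller cannot be told apart from its absence.

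Mest encodes a protein of the hydrolase fold read from the father's copy, and its window was chr6:30670001-30710000. Its 5hmC coverage was 4.06% and 3.88% for WT, 2.47% and 2.53% for Tet2KO and 2.22% and 1.16% for DKO, so all 4 mutant libraries lay below both WT libraries. The 5mC coverage was 12.7% and 8.14% for WT, 9.18% for Tet2KO and 8.56% and 11.3% for DKO, and here the 2 WT libraries were the highest and the lowest. The widest shared regions of Mest were chr6:30669699-30670541 for 5hmC, with scores of 89.6 to 144, and chr6:30682598-30683974 for 5mC, with scores of 205 to 318. Gnas, which encodes the stimulatory G protein alpha subunit and other products from several promoters, had high coverage of its window, chr2:174100001-174180000, in every library of either mark. Its 5hmC coverage was 15.4% and 14.6% for WT, 14.96% and 14.7% for Tet2KO and 15.6% and 16.0% for DKO. Its 5mC coverage was 15.4% and 15.2% for WT, 16.2% for Tet2KO and 15.6% and 16.1% for DKO. Both DKO libraries were above both WT libraries for 5hmC, by 0.755 percentage points on average, and for 5mC, by 0.522 points, and limma called neither (adjusted p = 0.891 and 0.943). The 5hmC difference was 0.110 points with equal numbers of top peaks per list, 0.367 without WT replicate 2 and 1.14 without WT replicate 1. The 5mC difference was 0.273 points without DKO replicate 2. The widest shared region of Gnas was chr2:174161100-174164928 for 5hmC and chr2:174123848-174126652 for 5mC.

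The marks were then compared at the strongest 5mC regions, those whose peaks were within the top 5% of scores of every 5mC list. The windows held 15 of the 4273 such regions of the genome. They were 4 in Gnas, 3 each in Igf2r and Meg3, and 1 each in H19 and Igf2, Kcnq1ot1, Peg3, Grb10 and Mest. Of these 15, 8 (53.3%) had no base under a 5hmC peak in any library, against 40.4% of the 4273, and 4 (26.7%) had 5hmC in all 6 libraries, against 30.3%. With 15 regions from 8 windows these shares are a description and were not tested. The bases of the 15 regions covered by 5hmC were 18.9% and 24.6% for WT, 22.0% and 14.5% for Tet2KO and 24.0% and 20.9% for DKO. Over the 4273 regions the values were 49.1% and 47.5% for WT, 35.5% and 34.8% for Tet2KO and 38.9% and 37.4% for DKO. All 4 mutant libraries were below both WT libraries over the genome, and the genotypes overlapped at the 15 imprinted regions. At the other 52 member 5mC regions present in all 5 lists, 5hmC covered 18.4% and 17.9% for WT, 11.8% and 13.3% for Tet2KO and 15.7% and 15.1% for DKO, so there all 4 mutant libraries lay below WT. The 66289 other constant 5mC regions of the genome had 28.0% and 26.9% for WT, 21.0% and 20.3% for Tet2KO and 22.8% and 22.1% for DKO. Whether the imprinted regions differ from the genome in this respect was not tested.

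**Figure D3:**
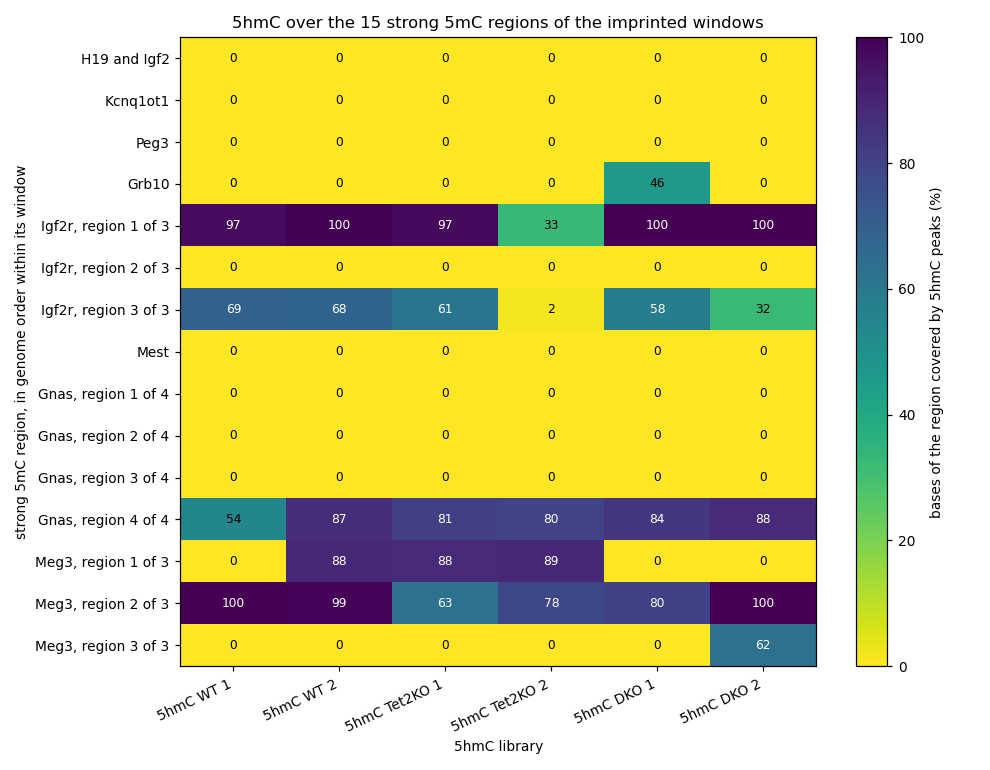
Percent of bases covered by 5hmC peaks in each of the 15 strong 5mC regions (rows, in genome order within their window) in the 6 5hmC libraries (columns). Yellow rows at 0 in every column are the 8 regions with no 5hmC, and regions 1 and 3 of Igf2r, 4 of Gnas and 2 of Meg3 have 5hmC in all 6.

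The 8 regions with none were those of Kcnq1ot1, Peg3, H19 and Igf2 (chr7:149762404-149763127) and Mest (chr6:30687650-30688680), 3 of the 4 in Gnas and 1 of the 3 in Igf2r (chr17:12934170-12935628). Within Gnas the marks changed over a short distance. The region chr2:174152427-174153662 had no 5hmC inside in any library, and the region chr2:174153677-174155039, next to it, had 5hmC over 79.1% of its bases on average, in all 6 libraries. The Igf2r region chr17:12880448-12881640 and the Meg3 region chr12:110784157-110784967 also had 5mC peaks in every 5mC library and 5hmC in every 5hmC library. On average, 87.9% and 86.7% of their bases lay under 5hmC. The Igf2r region chr17:12961762-12963050 likewise had peaks in every library of either mark, with 5hmC over fewer of its bases, 48.2% on average. The marks were measured in separate libraries, so overlap does not place them on the same DNA. At the dominant 5mC region of Grb10, 5hmC was called in 1 DKO library only, over 817 bp. The Meg3 region chr12:110765419-110766114 had 5hmC in 1 WT library and both Tet2KO libraries, and in neither DKO library. Around the strong regions, in the 1 kb on either side, 5hmC covered 8.003% to 11.3% of bases at the imprinted ones and 14.5% to 20.02% over the genome, depending on the library.

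**Figure D4:**
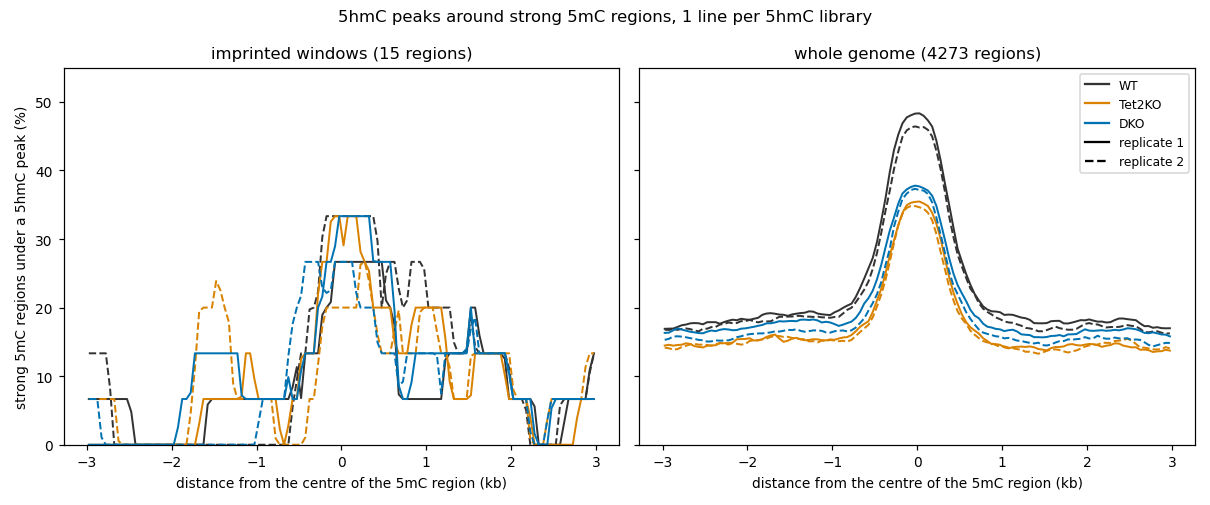
Share of strong 5mC regions under a 5hmC peak at each distance (kb) from the centre of the 5mC region, for the 15 imprinted regions (left) and the 4273 of the genome (right), 1 line per 5hmC library. At the centre the genome's lines reach 48.3% and 46.3% in WT and lie between 34.6% and 37.7% in the mutants, while the imprinted lines lie between 20% and 33.3% with the genotypes mixed; 1 region makes a step of 6.67%.

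Over all 5mC regions of WT, and not only the strongest, 13 of 42 member 5hmC regions (31.0%) overlapped a 5mC region, against 22.9% over the genome. Seen from 5mC, 14 of 74 member regions (18.9%) overlapped 5hmC, against 24.9%. All overlaps were in Igf2r, Mest, Gnas and Meg3. The windows of H19 and Igf2, Kcnq1ot1, Peg3, Snrpn and Grb10 had none.

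To compare genotypes, limma was fitted over the whole genome to the covered share of 10 kb bins, on the arcsine square root scale. No bin passed an adjusted p of 0.05 in any comparison, inside or outside the windows (percent called 0 of 74281 bins for 5hmC and 0 of 90130 for 5mC). At an unadjusted p under 0.05 there were 3 of the 36 member bins tested for 5hmC in Tet2KO against WT, all lower (10.5% of the genome's bins), 1 in DKO against WT, lower (9.61%), and 1 in DKO against Tet2KO, higher (7.33%). For 5mC in DKO against WT there were 3 of 45 member bins, all higher and all in Meg3 (6.8% of the genome's bins). The shares of member bins were thus close to or below those of the genome, and none is a call. In simulated 5hmC data for DKO against WT, increases of 0.2 on the arcsine scale were not recovered. Of increases of 0.4, 76.5% were recovered, with 5 other bins called falsely. Decreases and the other comparisons were not simulated.

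The member bin with the smallest p for both mutants against WT lay in the Mest window, chr6:30680001-30690000. Its 5hmC coverage was 6.01% and 5.06% in WT and 0 in all 4 mutant libraries. The difference was -0.237 on the arcsine scale for either mutant (SE 0.0484, limma, adjusted p = 0.218 for Tet2KO and 0.224 for DKO). Bins needed a peak in at least 2 libraries to be tested, and this bin met that through WT alone. Both comparisons set the same WT values against 0, so they do not back each other. The bin held 1 5hmC region, chr6:30680051-30680651, with scores of 62.3 and 60.0 in WT, close to 50, the lowest score in any list. Its 5mC was not among the differences: the overlapping 5mC region had a peak in all 5 libraries. With 5hmC peaks of a score of at least 100 alone, the difference of the whole Mest window was 0.190 percentage points for Tet2KO and 0.0700 for DKO, instead of -1.47 and -2.28. Tested as a whole, the Mest window gave -0.0718 for DKO against WT (SE 0.0207, limma, adjusted p = 0.540) and -0.0419 for Tet2KO against WT (SE 0.0207, limma, adjusted p = 0.453).

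In Gnas, the bin chr2:174170001-174180000 had the smallest member p for DKO against Tet2KO. Its 5hmC coverage was 19.7% and 18.2% for WT, 10.1% and 10.3% for Tet2KO and 17.3% and 18.4% for DKO. Tet2KO was thus low while WT and DKO overlapped; the difference of DKO from Tet2KO was 0.112 (SE 0.0335, limma, adjusted p = 0.497). For 5mC the smallest member p was in the Meg3 bin chr12:110810001-110820000, with 7.85% and 5.21% for WT, 9.42% for Tet2KO and 10.8% and 12.9% for DKO, a difference of 0.0939 (SE 0.0289, limma, adjusted p = 0.609). As a whole window, Meg3 differed by 0.0308 in 5mC between DKO and WT (SE 0.0107, limma, adjusted p = 0.943).

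**Figure D5:**
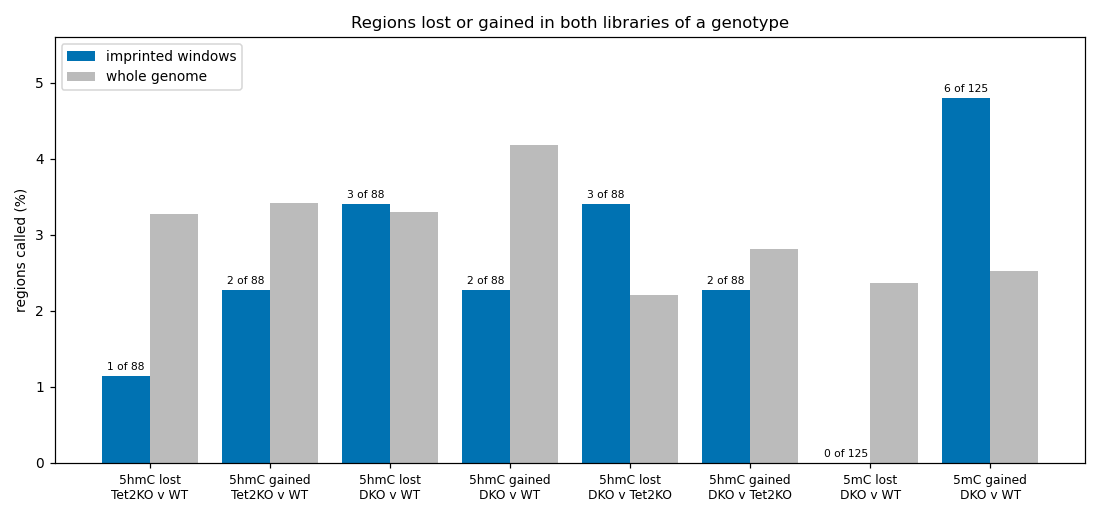
Percent of regions called lost (peak in both libraries of the second genotype, none in both of the first) or gained (the reverse), for the imprinted windows (blue, with counts) and the genome (grey). The blue bars rest on 0 to 6 regions each; the highest is 5mC gained in DKO against WT with 6 of 125.

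A region was then counted as lost when it had a peak in both libraries of one genotype and was missing from both of the mutant set against it, and as gained for the reverse. This rule has no test, and both comparisons with WT rest on the same WT libraries. Against WT, 1 of the 88 5hmC regions was lost in Tet2KO (3.27% over the genome) and 2 were gained (3.42%). In DKO 3 were lost (3.3%) and 2 gained (4.18%). In the comparison of DKO with Tet2KO, 3 were lost in DKO (2.21%) and 2 gained (2.81%). For 5mC, DKO against WT gave 0 of 125 regions lost (2.37%) and 6 gained (2.53%). The member shares were near or below those of the genome for 5hmC against WT. Between the mutants the lost share, 3.41%, was above the genome's and the gained share, 2.27%, below it, on 3 and 2 regions. For 5mC the gained share, 4.8%, was above the genome's and the lost share below it, on 6 and 0 regions.

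The region lost in Tet2KO was the one in Mest described above, and it was lost in DKO too. The other 2 lost in DKO were in Grb10, at chr11:11830959-11832120, which had a peak in 1 Tet2KO library, and chr11:11862537-11863023, which had a peak in both. Grb10 also held both 5hmC regions gained in DKO, chr11:11839552-11840043 and chr11:11874758-11875358, and the latter also had a peak in 1 Tet2KO library. Both regions gained in Tet2KO were in Igf2r, chr17:12915298-12915968 and chr17:12926473-12927776, and each also had a peak in 1 DKO library. Between the mutants, the losses in DKO were chr11:11862537-11863023 again, chr12:110765479-110766213 in Meg3 and chr2:174157129-174157861 in Gnas. The gains were chr11:11839552-11840043 again and chr17:12874585-12875284 in Igf2r, which also had a peak in 1 WT library. The Meg3 and Gnas regions lost in DKO each had a peak in 1 WT library. With 5hmC scores of at least 100 alone, the Gnas loss was still called, and none of the other losses and gains named here was. At that minimum the Gnas region stood in Tet2KO alone, with scores of 124 and 104. Its only WT peak scored 51.7, so the region was then absent from WT as well as from DKO.

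Of the 6 5mC regions gained in DKO, 4 lay in Meg3, 1 in Peg3 and 1 in the H19 and Igf2 window. The widest were chr12:110797812-110798450 and chr12:110816682-110817048 in Meg3 and chr7:149837169-149837522 in H19 and Igf2. Their scores in DKO were 66.1 and 103, 61.1 and 80.2, and 108 and 82.4, where 50 was the lowest score in any list, and with a minimum score of 100 none of the 6 was called; the 1 region gained there was another one.

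Taking the windows together, 5hmC peaks covered 6.50% and 5.82% for WT, 5.71% and 6.29% for Tet2KO and 6.73% and 6.04% for DKO, and the genotypes overlapped. Over the genome the Tet2KO libraries, with 3.84% and 3.73%, were below both WT libraries, with 4.23% and 4.13%. The difference of Tet2KO from WT was -0.165 percentage points in the windows and -0.393 over the genome. For 5mC the windows had 6.52% and 6.00% for WT, 6.74% for Tet2KO and 6.53% and 6.53% for DKO. The 5mC difference of DKO from WT, 0.273 percentage points, was below the SD of 0.374 between the WT libraries, and the genome's was -0.00479.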

How the data were processed

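Groups and replicate numbers came from the sample titles; the title of the 5mC Tet2KO library gives it the number 2, while its list's name carries 1, and the title was followed. The authors deposited 1 peak list per library, with positions and a score. The score's scale is not stated. It was used to rank or filter peaks within a list, and is otherwise printed as deposited. Per the submitters' processing notes, Bowtie 0.12.9, MACS 1.4.2 and mm9 were used, with no role given. Use of a control library, treatment of duplicates and sequencing depth are not stated in any source used here. Depth is therefore unknown, and no counting interval can be given; a deeper library can yield more and wider peaks. The 17 RNA-seq samples of the 28 were not analysed here.

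Window limits were given in mm9 for these genes; no mm9 annotation was used here, so regions were not placed against exons or promoters. Members, windows and lists were chosen with earlier results of these data known, and the class of strong 5mC regions after seeing these lists. Peaks overlapping by at least 1 bp were merged per mark. limma 3.58.1 (R 4.3.3; trend in the prior variance, all libraries of a mark in 1 fit, Benjamini-Hochberg over all bins that at least 2 libraries had a peak in) was checked on simulated data; bins with no spread within groups had their variance offset from 0. An exact permutation of 2 against 2 libraries reaches 0.333 at the lowest. Named regions were all called member regions (at most the 3 widest per comparison and direction), the widest region shared by all libraries per window and mark, and the member bin with the smallest p per comparison; the strong 5mC regions were added. Tables and figures were made with Python 3.11.15, pandas 2.3.3, numpy 2.4.6 and matplotlib 3.10.9. Alternatives were other bin sizes, scales, filters, score minima, equal peak numbers, merging distances, a replicate block and leaving out each library.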

Additional observations from a re-analysis of the deposited data

How the results depend on the processing

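limma called 0 bins of 10 kb in all 4 comparisons under every alternative run (5 kb bins, whole windows, no transformation, other filters, a score of at least 100, equal peak numbers, a replicate block), and 0 to 0 when a library was left out. The lowest adjusted p of any member bin was 0.0879, for 5hmC in DKO against WT at a score of at least 100. In that run 2 of 25 member bins had an unadjusted p under 0.05 in limma (11.3% of the genome's bins). Of these, 0 were lower in DKO, so this lowest p belongs to a higher value and not to the Mest bin described above. With the replicate block 0 bins were called, the smallest adjusted p of limma being 0.402 to 0.906. The deviation of replicate 1 from its group mean, bin by bin, correlated by -0.0494 to 0.0226 between genotypes of a mark. The covered share of bins thus showed no pairing by replicate number. Counts of lost and gained regions moved. At a score of at least 100, 5hmC in Tet2KO against WT had 0 lost and 4 gained, DKO against WT 0 lost, DKO against Tet2KO 1 lost and 1 gained, and 5mC 1 gained; DKO against WT kept its count of 2 gained, but every gain counted there was another region than those named above, and of the named losses only the Gnas region was still called. Equal peak numbers gave 1 gained in DKO against Tet2KO, and merging peaks within 500 bp gave 3 gained for 5mC. When 1 library stood for its genotype, fewer libraries had to agree and 5hmC counts rose to 3 to 5 lost and 4 to 13 gained (Tet2KO against WT), 5 to 9 and 6 to 9 (DKO against WT), and 5 to 10 and 3 to 9 (DKO against Tet2KO), with 1 to 7 lost and 7 to 15 gained for 5mC. Leaving out a library, the coverage differences of all windows together ran from -0.507 to 0.178 percentage points (5hmC, Tet2KO minus WT), -0.122 to 0.571 (DKO minus WT) and 0.0428 to 0.735 (DKO minus Tet2KO), and for 5mC from 0.00816 to 0.537 (DKO minus WT) and 0.212 to 0.741 (Tet2KO minus WT), so the first 2 have no fixed direction. The share of member 5hmC regions of WT that overlap 5mC was 27.8% to 35.4%. The genome's share under the same settings is not given here. Of the strong 5mC regions, 53.3% had no 5hmC; in alternatives chosen after seeing the data this was 44.4% for the top 1% of scores (genome 24.9%) and 73.3% with 5hmC scores of at least 100 (genome 56.3%). Both assays report enrichment, not the share of modified cytosines, and neither resolves parental copies.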
